A study of Mus musculus with 6 samples.

Results

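The transcripts described here come from 8 genes of the growing mouse oocyte: the zona pellucida genes Zp1, Zp2 and Zp3, the secreted growth factor genes Gdf9 and Bmp15, the oocyte-secreted protein gene Oosp1, the kinase gene Mos and the tissue plasminogen activator gene Plat. They were picked by gene name from the 26982 genes of the deposited count table, with earlier results of these data known. All 8 were found, and all 8 were among the 17638 genes that passed a filter on low counts. The libraries hold RNA of mouse 2-cell embryos cultured in KSOM medium, in 3 groups of 2 libraries numbered 1 and 2. Zygotes of the Suv39h1wt group had been microinjected at the fertilisation cone stage, 18 h after hCG (the hormone given to induce ovulation), with 0.6 µg/µl of Suv39h1wt mRNA. Those of the Suv39h1mut group had received the same concentration of Suv39h1mut mRNA in the same way, and those of the non-injected group had received none. SUV39H1 is a histone methyltransferase that trimethylates lysine 9 of histone H3, and the labels give neither the mutation nor the mouse strain. No group received a control mRNA other than Suv39h1mut, so injection itself and the injected message cannot be told apart in comparisons with non-injected embryos.

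The zona pellucida is the glycoprotein coat that the growing oocyte lays around itself. ZP1, ZP2 and ZP3 form its filaments, which ZP1 cross-links, and ZP2 is cleaved after fertilisation when the coat is modified. GDF9 and BMP15 are ligands of the TGF-β superfamily that oocytes send to the surrounding granulosa cells. MOS activates the MAP kinase cascade that holds the mature egg at metaphase II, and Plat mRNA is a known dormant message of mouse oocytes that gains a long poly(A) tail at maturation. Transcripts of this kind are made before ovulation and are degraded around maturation, fertilisation and the 2-cell stage. A count at the 2-cell stage therefore reads what is left of a stored message together with anything newly made. In bulk RNA from whole embryos, fewer embryos with the message and less message per embryo cannot be told apart.

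The 3′ ends of these messages differ in length and sequence, which matters because the libraries were primed partly with poly-T primers and because tail control of stored messages acts there. In the principal GENCODE M21 transcript (assembly GRCm38), the 3′ untranslated part had 34 bases in Zp1, 49 bases in Zp2 and 13 bases in Zp3. It had 360 bases in Gdf9, 1523 in Bmp15, 230 in Oosp1, 126 in Mos and 738 in Plat. The median over 20096 mouse transcripts was 681 bases, and 9.59% of them had at most 50 bases, as all 3 zona messages did. The lines show, in mRNA sense, the 30 bases that end with the last AATAAA of each message, the letters of the polyadenylation hexamer. This hexamer began 18 to 38 bases before the annotated end in 7 messages and 93 bases before it in Oosp1. In Zp3 it began 18 bases before the end, ahead of the untranslated part, so the bases shown before it are coding. The stretches shown for Zp1 and Zp2 are coding in part. Capitals mark the hexamer AATAAA and, in Gdf9, the TTTTAT element upstream of it.
Zp1: aggcatcagatattaaatggactcAATAAA
Zp2: gttcaatcactgattggacttgcaAATAAA
Zp3: cttcctaccttgtatcccttccgcAATAAA
Gdf9: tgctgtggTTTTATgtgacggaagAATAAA
Bmp15: ttatgtattttcttaatcttaaagAATAAA
Oosp1: taattgtataaaatctgattaaagAATAAA
Mos: taccactagggcatatttttaggaAATAAA
Plat: ctttgtattatactgtacttaaatAATAAA
All 8 messages held AATAAA in their last 100 bases, as did 60.4% of the 20096 transcripts searched in the same way on the mRNA strand. In the 3 zona messages these 100 bases include coding sequence. TTTTAT or TTTTAAT, the letters of the cytoplasmic polyadenylation element that CPEB proteins bind, lay in the last 100 bases of Gdf9 and of Plat. In Gdf9 TTTTAT began 16 bases before the hexamer, and in Plat TTTTAAT began 60 bases before it, outside the stretch shown. Either element occurred in 16.6% of the 20096 transcripts. The letters are a description of the annotated transcript and not of bound sites or of tail length.

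Total counts were 45975912 and 43116784 in the Suv39h1wt libraries, 48572265 and 46668488 in the Suv39h1mut libraries and 33497519 and 36441761 in the non-injected libraries, so depth moved with injection. The 8 genes together took 0.154% and 0.122% of the counts in Suv39h1wt, 0.157% and 0.171% in Suv39h1mut and 0.0944% and 0.11% in non-injected embryos. The mitochondrial ribosomal RNAs took 26.7% and 47.3%, 28.7% and 37.4%, and 37% and 46.8% in the same order of groups, and were higher in the library numbered 2 of each group. Suv39h1 itself, the message injected, was at 51.2 and 38 CPM (reads of the gene relative to all reads of the library, scaled by the TMM method) in Suv39h1wt, 28 and 41.6 CPM in Suv39h1mut and 41.3 and 35 CPM in non-injected embryos. Its injected and non-injected values overlapped, so this gene gave no check of the labels. The 18 cumulus and granulosa marker genes in the table summed to 32 to 49.2 CPM per injected library and to 44.2 and 46.9 CPM in the non-injected libraries. Of the 11 tested, 7 had positive and 4 negative log2 fold changes in injected vs non-injected embryos, with a median of 0.44, and edgeR called 0. Amhr2 averaged 18.6 ± 5.97 CPM in injected and 32.3 ± 0.632 CPM in non-injected embryos, and Inhba averaged 0.781 ± 1.1 CPM in injected embryos and was at 0 in both non-injected libraries (SD, n = 4 and 2). Cyp19a1 was counted in all 6 libraries, at 1.99 to 4.16 CPM in injected and 0.638 and 4.19 CPM in non-injected embryos. Ptgs2 was at 0.994 to 2.21 CPM in injected and 0.459 and 0.0306 CPM in non-injected embryos, Has2 at 0 to 4.09 CPM in injected and 2.73 and 1.16 CPM in non-injected embryos, and Star at 0 to 2.03 CPM in injected and 2.76 and 3.89 CPM in non-injected embryos. Amh was at 0 in all libraries except Suv39h1mut library 2 and Fshr at 0 in all except Suv39h1mut library 1. The 7 sperm marker genes summed to 0.423 to 1.21 CPM per injected library and to 0 and 2.53 CPM in the non-injected libraries. The part of depth, ribosomal share or cell admixture in the values given here was not tested, except where a value without the ribosomal genes stands beside a result.

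Per length, the messages ran from the top of all expressed genes down to their lower part. Values are CPM per kilobase of the principal transcript, as the mean ± SD over the 6 libraries (n = 6). Oosp1 was highest at 609 ± 307, between percentiles 99.7 and 100 of the 14121 tested genes that have such a length. Bmp15 followed at 140 ± 47.9 and Gdf9 at 126 ± 30, and their libraries overlapped. Zp3 at 25.4 ± 10.8 and Zp2 at 22.7 ± 11.9 overlapped as well, as did Zp1 at 6.52 ± 2.96 and Plat at 5.45 ± 2.49. Mos was lowest at 0.667 ± 0.397, between percentiles 19.1 and 38.7. The lowest Oosp1 library, at 231, stood above the highest Bmp15 library at 217, and the lowest Gdf9 library, at 85.9, above the highest Zp3 library at 42.5. The lowest Zp2 library, at 9.61, was below the highest Zp1 library at 11.1, so those neighbours overlapped. The highest Mos library, at 1.35, was below the lowest Zp1 library at 3.19.

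**Figure D1:**
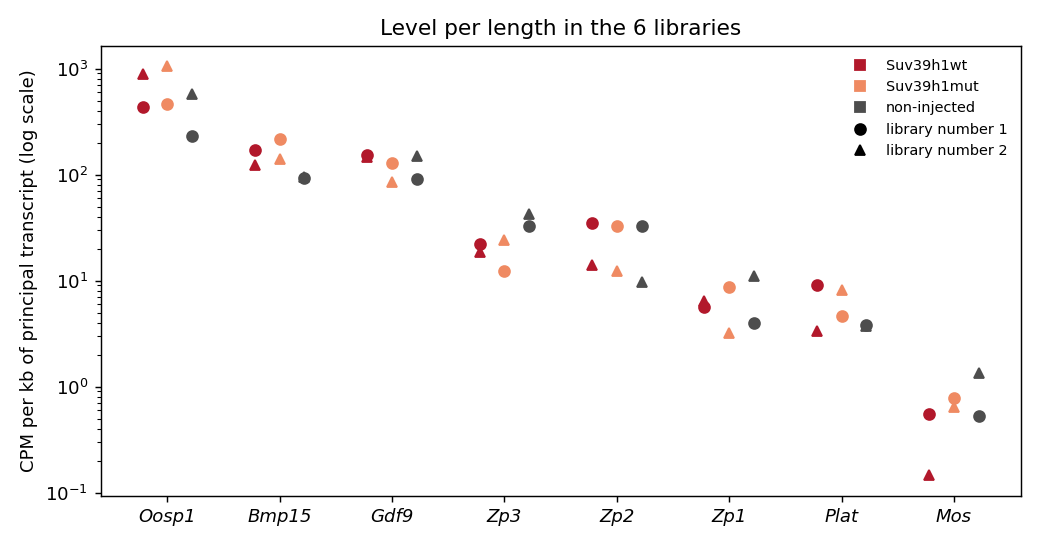
Level of each message per kilobase of its principal transcript, in CPM per kilobase on a log axis, with 1 point for each of the 6 libraries, coloured by group and shaped by library number. Oosp1 lies between 231 and 1050, Bmp15 and Gdf9 overlap between 85.9 and 217, and Mos stays at 1.35 or below.

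The order of Gdf9 and Bmp15 depended on the gene length used. The length implied by the deposited length-scaled values was 429 bases for Gdf9, which equals the annotated noncoding transcript Gdf9-203, and 545 bases for Oosp1, which equals the nonsense-mediated decay transcript Oosp1-202. Their principal transcripts have 1793 and 972 bases. With the principal length, Gdf9 over Bmp15 lay between 0.589 and 1.58 and exceeded 1 in 2 of 6 libraries. With the deposited length it lay between 2.46 and 6.59 and exceeded 1 in 6 of 6. With the union of annotated exons it lay between 0.52 and 1.39. The deposited length also raised Oosp1 to 1090 CPM per kilobase and Gdf9 to 525. These lengths were chosen for comparison after the data were seen, and they leave every comparison of a gene with itself between groups as it was.

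The zona genes differed in how they varied. Zp1 (ENSMUSG00000024734, chromosome 19, 10988777 to 10995122 in mm9) was at 11.2 and 12.7 CPM in Suv39h1wt, 17.1 and 6.26 CPM in Suv39h1mut and 7.81 and 21.7 CPM in non-injected embryos. The groups overlapped, and the lowest and the highest value came from Suv39h1mut library 2 and non-injected library 2. Zp2 (ENSMUSG00000030911, chromosome 7, 127270286 to 127288804) was at 77.6 and 31.3 CPM in Suv39h1wt, 72.5 and 27.1 CPM in Suv39h1mut and 73.3 and 21.3 CPM in non-injected embryos. Here the 3 groups were alike and the library number separated the values, with 72.5 to 77.6 CPM in libraries numbered 1 and 21.3 to 31.3 CPM in those numbered 2. Zp3 (ENSMUSG00000004948, chromosome 5, 136455969 to 136464494), the partner with which ZP2 forms filaments, was at 29.3 and 24.5 CPM in Suv39h1wt, 16.2 and 31.7 CPM in Suv39h1mut and 43.8 and 56.2 CPM in non-injected embryos. All 4 injected libraries were below both non-injected ones for Zp3. Of all genes tested, 17.1% did not overlap in this way, in either direction. Per length, Zp3 over Zp2 was 0.635 and 1.31 in Suv39h1wt, 0.374 and 1.96 in Suv39h1mut and 1 and 4.42 in non-injected embryos, so the ratio was higher in the library numbered 2 of each group.

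Gdf9 and Bmp15, whose proteins act on the same follicle cells, were both well counted, with 6421 to 14220 and 9512 to 34639 reads per library. Gdf9 (ENSMUSG00000018238, chromosome 11, 53244525 to 53251406) was at 273 and 263 CPM in Suv39h1wt, 229 and 154 CPM in Suv39h1mut and 164 and 269 CPM in non-injected embryos. It was the steadiest of the 8, with a 1.77-fold span from the lowest to the highest library. Both Suv39h1wt values lay above both Suv39h1mut values, and both injected groups overlapped the non-injected one. Bmp15 (ENSMUSG00000023279, chromosome X, 5891225 to 5897839) was at 524 and 373 CPM in Suv39h1wt, 663 and 427 CPM in Suv39h1mut and 283 and 291 CPM in non-injected embryos. All 4 injected libraries lay above both non-injected ones, where 17.1% of all genes did not overlap in either direction.

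Oosp1 (ENSMUSG00000041857, chromosome 19, 11741950 to 11765640), named for a secreted oocyte protein, was at 425 and 871 CPM in Suv39h1wt, 452 and 1020 CPM in Suv39h1mut and 225 and 557 CPM in non-injected embryos. The groups overlapped, and within each group the library numbered 2 was the higher one. Mos (ENSMUSG00000078365, chromosome 4, 3797804 to 3799252) was at 0.806 and 0.211 CPM in Suv39h1wt, 1.13 and 0.931 CPM in Suv39h1mut and 0.765 and 1.96 CPM in non-injected embryos. Those values rest on 42 and 7, 59 and 44, and 30 and 64 reads, so counting error alone is large for Suv39h1wt library 2. Plat (ENSMUSG00000031538, chromosome 8, 23868216 to 23893319) was at 22.8 and 8.41 CPM in Suv39h1wt, 11.7 and 20.6 CPM in Suv39h1mut and 9.62 and 9.34 CPM in non-injected embryos. The Suv39h1wt libraries lay on either side of the non-injected pair, and both Suv39h1mut libraries lay above it.

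**Figure D2:**
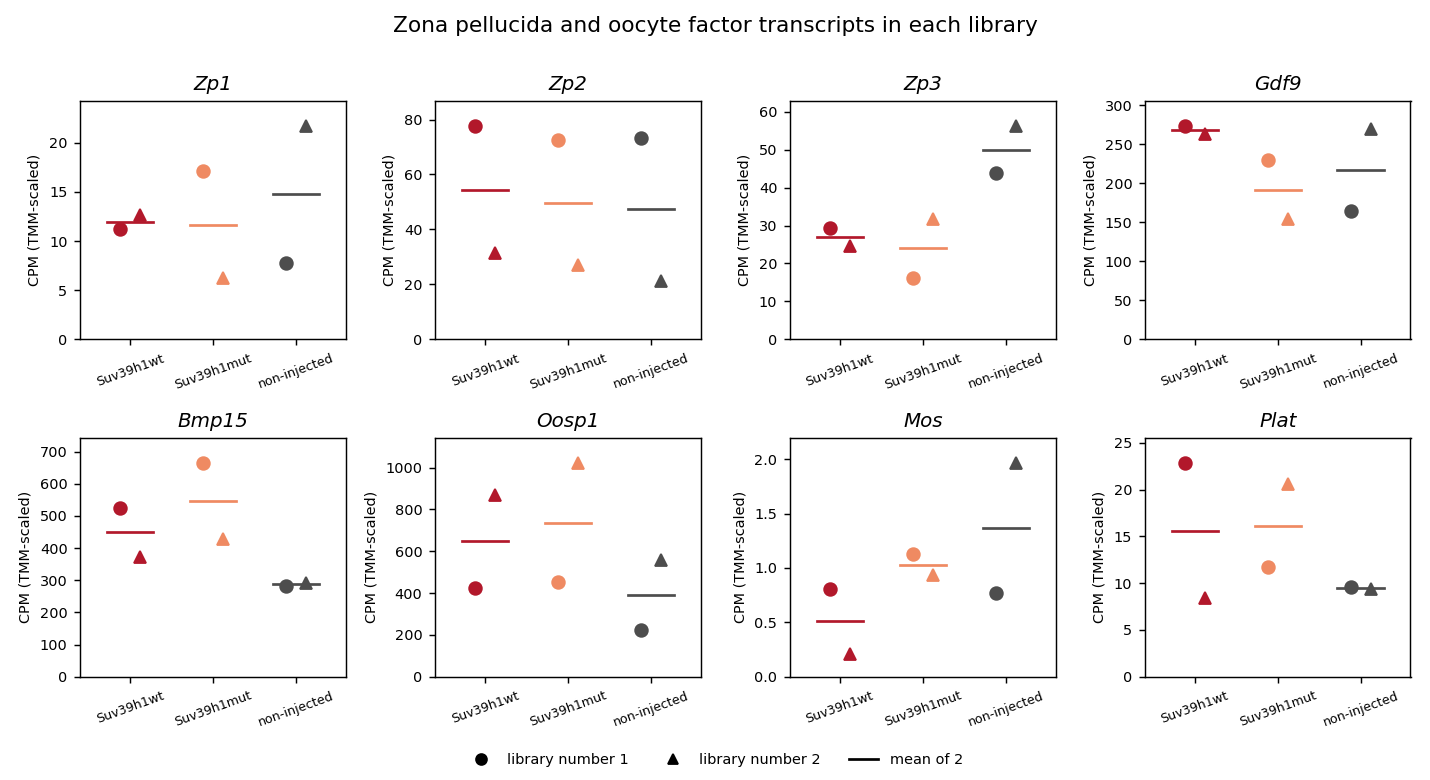
CPM of each message in the 6 libraries, with groups along the x axis, circles for library number 1, triangles for number 2 and a line at the mean of 2. Zp3 is lower and Bmp15 higher in all 4 injected libraries than in both non-injected ones, where 17.1% of all genes did not overlap. In every group the triangle is lower for Zp2 and higher for Oosp1. Number 2 and number 1 differed in the same direction in all 3 groups for 39.1% of all genes.

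Suv39h1wt was first compared with Suv39h1mut, which sets the wild-type form of the enzyme against the mutant at the same injected dose. None of the 8 messages passed the test, and 4 fold changes were positive and 4 negative. edgeR's quasi-likelihood test with Benjamini-Hochberg adjustment called 0% of the 17638 genes at adjusted p under 0.05, with 480 genes at an unadjusted p under 0.05. DESeq2 called 44 genes, and edgeR called 18 without Suv39h1wt library 1 and 1 without Suv39h1mut library 1, none of them among the 8. Gdf9 averaged 268 ± 7.26 CPM in Suv39h1wt and 192 ± 53.1 CPM in Suv39h1mut (SD, n = 2 each), a log2 fold change of 0.48 ± 0.46 (SE, edgeR adjusted p = 1). Mos averaged 0.509 ± 0.421 CPM in Suv39h1wt and 1.03 ± 0.141 CPM in Suv39h1mut, a log2 fold change of -1.01 ± 1.71 (edgeR adjusted p = 1). The other fold changes lay between -0.28 ± 0.44 (Bmp15) and 0.17 ± 0.56 (Zp3) on the log2 scale, each smaller than its SE. Gdf9 and Mos were the 2 of 8 whose groups did not overlap, which happened for 27.4% of all genes tested. The median log2 fold change was -0.01 over the 8 and -0.01 over all genes. In the authors' deposited table for this comparison, log2 values ran from -0.39 (Mos) to 0.45 (Gdf9), with adjusted p-values of 0.822 to 0.998 for the 8 genes.

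Against non-injected embryos, the mean of Zp3 was lower and the means of Bmp15, Oosp1 and Plat were higher in both injected groups, but none passed the test. edgeR called 0% of genes in Suv39h1wt vs non-injected (1086 genes at an unadjusted p under 0.05; 284 called by DESeq2) and 0% in Suv39h1mut vs non-injected (781 and 59). Leaving out Suv39h1wt library 1 or 2 gave 44 or 3 calls in Suv39h1wt vs non-injected, and leaving out Suv39h1mut library 1 gave 1 call in Suv39h1mut vs non-injected. None of these calls was among the 8. Zp3 averaged 26.9 ± 3.42 CPM in Suv39h1wt and 50 ± 8.81 CPM in non-injected embryos (SD, n = 2 each), a log2 fold change of -0.89 ± 0.56 (SE, edgeR adjusted p = 0.757). It averaged 24 ± 11 CPM in Suv39h1mut, with a log2 fold change of -1.06 ± 0.56 against the same non-injected libraries (edgeR adjusted p = 0.88). Bmp15 averaged 448 ± 106 CPM in Suv39h1wt and 545 ± 167 CPM in Suv39h1mut, against 287 ± 5.88 CPM in non-injected embryos. The log2 fold changes were 0.64 ± 0.44 (edgeR adjusted p = 0.784) and 0.93 ± 0.45 (edgeR adjusted p = 0.88) for those comparisons. Oosp1 averaged 648 ± 316 CPM in Suv39h1wt and 736 ± 401 CPM in Suv39h1mut, against 391 ± 235 CPM in non-injected embryos, and the log2 fold changes were 0.73 ± 0.61 and 0.91 ± 0.61. With 1 library left out, those of Oosp1 lay between 0.14 (without Suv39h1wt library 2) and 1.53 (without non-injected library 2) in Suv39h1wt, and between 0.24 (without Suv39h1mut library 2) and 1.71 (without non-injected library 2) in Suv39h1mut.

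Both comparisons use the same 2 non-injected libraries, so they are not independent of each other. Zp3 and Bmp15 were the 2 of 8 without overlap in Suv39h1wt vs non-injected, where 34.4% of genes did not overlap. Zp3, Bmp15 and Plat were the 3 of 8 in Suv39h1mut vs non-injected, where the share was 35.4%. Plat averaged 15.6 ± 10.2 CPM in Suv39h1wt and 16.1 ± 6.25 CPM in Suv39h1mut, against 9.48 ± 0.198 CPM in non-injected embryos. Its log2 fold changes were 0.72 ± 0.75 and 0.77 ± 0.75. The rest had log2 fold changes between -1.41 ± 1.73 (Mos in Suv39h1wt) and 0.31 ± 0.46 (Gdf9 in Suv39h1wt), all smaller than their SE. The median over the 8 was 0.25 in Suv39h1wt and -0.05 in Suv39h1mut, against 0.02 over all genes in both.

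The 4 injected libraries were then set against the 2 non-injected ones. This contrast is the mean of the 2 comparisons above, so the directions that Zp3, Bmp15, Oosp1 and Plat shared there had to recur. The edgeR test again called 0% of genes, with 1214 at an unadjusted p under 0.05. DESeq2 called 170, none of the 8. Zp3 averaged 25.4 ± 6.87 CPM in injected and 50 ± 8.81 CPM in non-injected embryos (SD, n = 4 and 2), a log2 fold change of -0.98 ± 0.47 (SE, edgeR adjusted p = 0.701). Bmp15 averaged 497 ± 127 CPM in injected and 287 ± 5.88 CPM in non-injected embryos, a log2 fold change of 0.78 ± 0.40 (edgeR adjusted p = 0.701). Oosp1 averaged 692 ± 299 CPM in injected and 391 ± 235 CPM in non-injected embryos, a log2 fold change of 0.82 ± 0.54 (edgeR adjusted p = 0.714). Plat had 0.74 ± 0.67, Zp2 0.14 ± 0.64, Gdf9 0.07 ± 0.40, Zp1 -0.32 ± 0.69 and Mos -0.91 ± 1.43 as log2 fold changes. These values are from the fit without the library number. With the number as a block, log2 fold changes were -0.98 for Zp3, 0.75 for Bmp15 and 0.86 for Oosp1 (edgeR adjusted p = 0.339, 0.222 and 0.156). Zp3 and Bmp15 were the 2 of 8 whose injected and non-injected libraries did not overlap, against 17.1% of all genes. Without overlap, leaving out a single library could hardly turn their directions. The log2 values then lay between -1.24 and -0.77 for Zp3 and between 0.62 and 0.95 for Bmp15. Oosp1, whose libraries overlapped, kept its direction too, but its value moved more. It was 0.37 without non-injected library 1 and 1.62 without non-injected library 2.

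**Figure D3:**
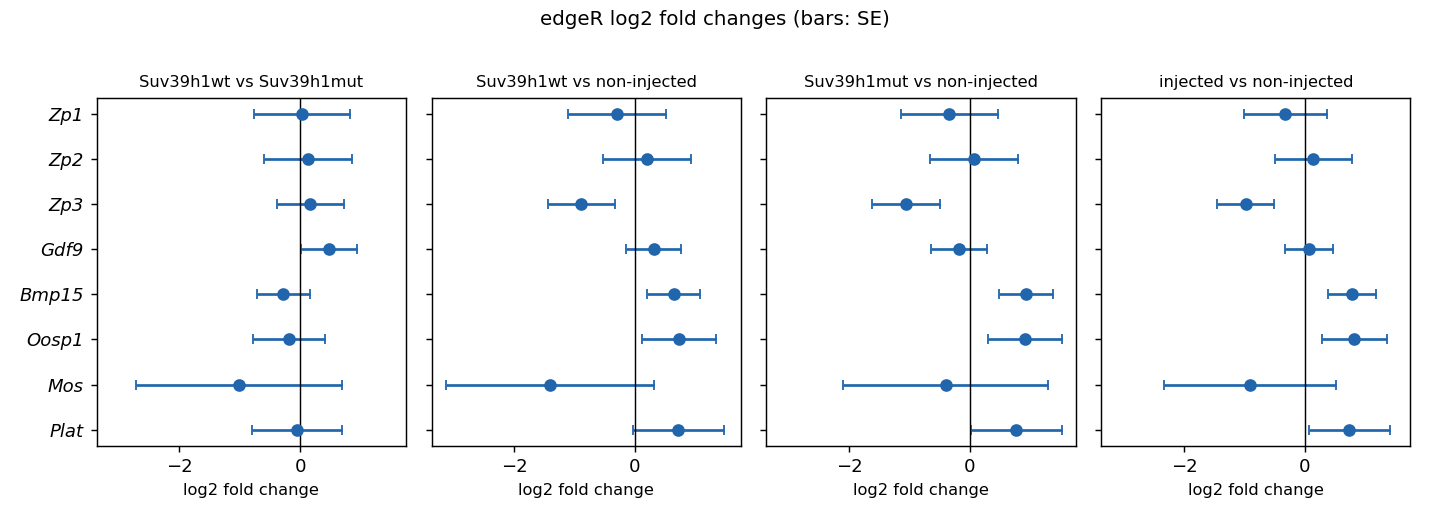
edgeR log2 fold changes of the 8 messages in the 4 group comparisons, with bars of 1 SE and a line at no change. In injected vs non-injected embryos Zp3 lies at -0.98, Bmp15 at 0.78 and Oosp1 at 0.82, and none passed the adjusted threshold.

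Within library numbers, Bmp15, Oosp1 and Zp3 had the directions given above. For Bmp15 and Zp3 this had to be so, since their injected and non-injected libraries did not overlap. Oosp1 was 0.92 and 1.01 higher on the log2 scale in Suv39h1wt and Suv39h1mut than in non-injected embryos among libraries numbered 1, and 0.64 and 0.87 higher among those numbered 2. Bmp15 was 0.89 and 1.23 higher among libraries numbered 1 and 0.36 and 0.55 higher among those numbered 2. Zp3 differed by -0.58 and -1.44 among libraries numbered 1 and by -1.2 and -0.83 among those numbered 2. Zp1, Gdf9 and Mos had opposite signs in the libraries numbered 2 and 1 in both comparisons with non-injected embryos. Plat had opposite signs in Suv39h1wt vs non-injected only, and Zp2 in Suv39h1mut vs non-injected only. Opposite signs occurred for 40.4% of all genes in each single comparison. The share of genes with opposite signs in both was not computed.

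The clearest separation among the 8 was between library numbers. Zp2 fell in libraries numbered 2, averaging 26.6 ± 5.01 CPM there and 74.5 ± 2.74 CPM in libraries numbered 1 (SD, n = 3 each). That was a log2 difference of -1.50 ± 0.29, or 2.83-fold lower (SE, edgeR with group in the model, adjusted p = 0.0261). Oosp1 rose, averaging 816 ± 236 CPM in libraries numbered 2 and 367 ± 124 CPM in those numbered 1, a log2 difference of 1.17 ± 0.18 or 2.26-fold (edgeR adjusted p = 0.0103). The labels do not say what the number marks. Of all genes tested, 3.12% were called in this comparison (551 genes, 252 higher and 299 lower; 203 higher and 397 lower under upper-quartile scaling), and 2 of the 8 were. The count was 221 without Suv39h1mut library 1 and 273 without non-injected library 1.

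The differences between libraries 2 and 1 were of like size in each group. For Zp2 they were -1.31 in Suv39h1wt, -1.42 in Suv39h1mut and -1.78 in non-injected embryos on the log2 scale. For Oosp1 they were 1.04, 1.17 and 1.31 in the same groups. Per length, Oosp1 over Zp2 was therefore 12.5 and 63.6 in Suv39h1wt, 14.3 and 85.9 in Suv39h1mut and 7.01 and 59.6 in non-injected embryos. Zp2 and Oosp1 were the 2 of 8 that differed in the same direction in all 3 groups, which held for 39.1% of all genes. Bmp15 had -0.49, -0.64 and 0.04, and Zp1 had 0.19, -1.45 and 1.48. With the mitochondrial ribosomal genes left out, Zp2 was at -1.50 (edgeR adjusted p = 0.0262) and Oosp1 at 1.17 (edgeR adjusted p = 0.0111). The Zp2 call was lost without Suv39h1mut library 1 (-1.55, edgeR adjusted p = 0.108), without non-injected library 1 (-1.36, edgeR adjusted p = 0.128) and without non-injected library 2 (-1.37, edgeR adjusted p = 0.0566). Oosp1 stayed called whichever library was left out.

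**Figure D4:**
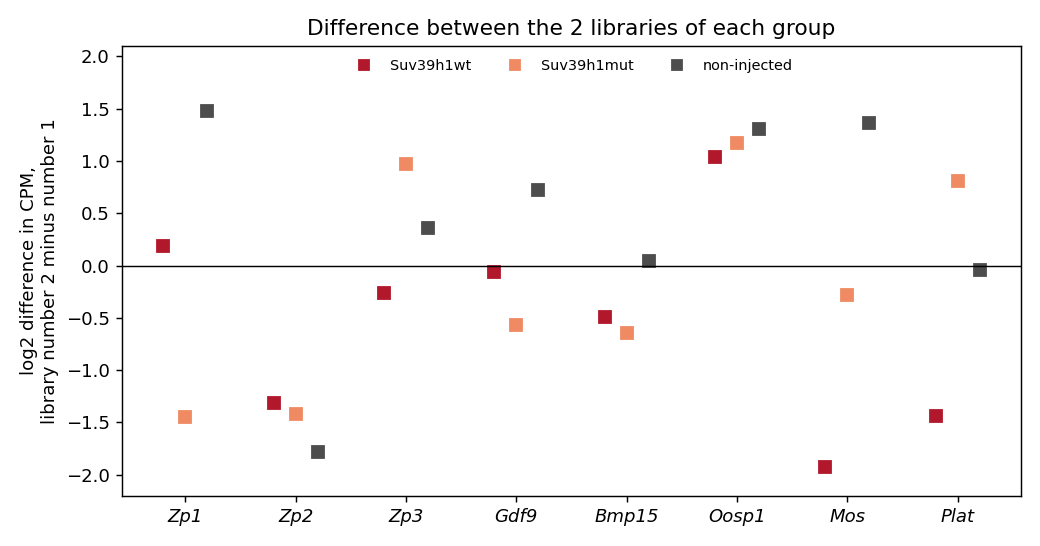
Log2 difference in CPM between library number 2 and library number 1 of each group, for each message, with 1 square per group. The 3 squares of Zp2 lie between -1.78 and -1.31 and those of Oosp1 between 1.04 and 1.31, while those of the other 6 messages fall on both sides of 0. Differences of the same direction in all 3 groups held for 39.1% of all genes.

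The 8 messages did not vary as a block across the libraries. Over the 28 pairs of genes, Pearson's r of log2 CPM over the 6 libraries had a median of -0.04, with 13 positive and 15 negative values. The range ran from -0.87 for Zp3 and Bmp15 to 0.81 for Zp1 and Gdf9. The libraries share group, number and depth, and these values are a description only. Among 6813 other genes that averaged 10 CPM or more, those nearest to each pattern by root mean square difference in centred log2 CPM over the 6 libraries were Ppfibp1 for Zp2 (0.1), Reep5 for Oosp1 (0.19), Pim3 for Zp3 (0.1) and Actr2 for Bmp15 (0.08). They were Neil3 for Zp1 (0.1), Cd160 for Gdf9 (0.09), Rab3ip for Mos (0.26) and Dnajc3 for Plat (0.14). Nearest to the mean pattern of all 8 were Phf15 (0.06), Dstyk (0.09) and Cntnap1 (0.11).

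Genes that act with these messages were read from lists, and in the group comparisons edgeR called 0 genes of any list. For the zona, 17 genes of a list on processing, egg surface and cortical granules were tested. Their median log2 fold change in injected vs non-injected embryos was 0.35, against -0.02 over all genes. This list also named Zar1 and Tle6, which the list of stored oocyte transcripts below names too, so the lists share genes. Fetub, whose protein fetuin-B inhibits the zona-cleaving protease ovastacin, averaged 5.1 ± 1.63 CPM in injected and 0.145 ± 0.119 CPM in non-injected embryos (SD, n = 4 and 2), a log2 fold change of 5.05 ± 1.34 (edgeR adjusted p = 0.701). Folr4, the egg receptor for sperm IZUMO1, averaged 10.5 ± 6.71 CPM in injected and 3.13 ± 1.7 CPM in non-injected embryos. Of 11 tested regulators of oocyte transcription the median was -0.2. Sohlh1, a transcription factor of early oocyte growth, averaged 0.257 ± 0.386 CPM in injected and 0.995 ± 0.974 CPM in non-injected embryos. Tbpl2, the oocyte relative of TATA-binding protein, averaged 4.29 ± 3.1 CPM in injected and 0.526 ± 0.7 CPM in non-injected embryos.

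On the receptor side of GDF9 and BMP15, 20 receptors, SMADs and inhibitors were tested, with a median of 0.28 and 12 positive values. Smad2, which carries the GDF9 type of signal, averaged 60 ± 13.9 CPM in injected and 28.6 ± 2.71 CPM in non-injected embryos (log2 fold change 1.07 ± 0.45, edgeR adjusted p = 0.701). Smad4, the SMAD shared by both branches, averaged 16.1 ± 9.74 CPM in injected and 32.8 ± 5.4 CPM in non-injected embryos. A further list held mostly genes of secreted factors, though not only these, and its 14 tested genes had a median of 0.24. In it, Fgf9 averaged 19.2 ± 5.81 CPM in injected and 4.43 ± 2.68 CPM in non-injected embryos. Pla2g4c, an oocyte phospholipase, averaged 579 ± 329 CPM in injected and 218 ± 172 CPM in non-injected embryos. Around MOS, the median over 18 genes was 0.19. Cdk1, the kinase of M phase, averaged 58.3 ± 10.5 CPM in injected and 94.8 ± 2.64 CPM in non-injected embryos. Map2k1, the kinase that MOS phosphorylates, averaged 195 ± 50.2 CPM in injected and 119 ± 4.01 CPM in non-injected embryos. Around Plat, 11 plasminogen activation genes had a median of -1.18 with 3 positive and 8 negative values. Lrp1, a receptor that clears tissue plasminogen activator, averaged 25.8 ± 12.8 CPM in injected and 55.2 ± 31.8 CPM in non-injected embryos. Anxa2, a surface protein that binds plasminogen and its activator, averaged 2.39 ± 2.87 CPM in injected and 0.0791 ± 0.0686 CPM in non-injected embryos.

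Of 27 tested genes that lengthen, shorten or bind the tails of stored messages, 16 had positive and 11 negative values in injected vs non-injected embryos, with a median of 0.28. Cnot7, a catalytic subunit of the CCR4-NOT deadenylase, averaged 397 ± 136 CPM in injected and 136 ± 43.4 CPM in non-injected embryos (log2 fold change 1.54 ± 0.47, edgeR adjusted p = 0.701). Cpsf4, a subunit of the complex that reads the AATAAA hexamer, averaged 16.7 ± 4.08 CPM in injected and 49.3 ± 14.8 CPM in non-injected embryos (log2 fold change -1.59 ± 0.46, edgeR adjusted p = 0.701). The 14 other stored oocyte transcripts summed to 17700 and 5900 CPM in Suv39h1wt, 20100 and 7340 CPM in Suv39h1mut and 6850 and 4580 CPM in non-injected embryos, and had a median log2 fold change of 0.56 in injected vs non-injected embryos. Zbed3, part of the subcortical maternal complex, averaged 9950 ± 6200 CPM in injected and 3770 ± 1040 CPM in non-injected embryos. On average this single gene made up most of those sums. The 12 genes of the 2-cell programme summed to 867 and 1050 CPM in Suv39h1wt and 722 and 572 CPM in Suv39h1mut. In non-injected embryos the sums were 375 and 400 CPM, without overlap between injected and non-injected libraries. Of single genes tested, 17.1% did not overlap there either. Zfp352 alone gave 351 and 593 CPM of the sums in Suv39h1wt and 362 and 351 CPM in Suv39h1mut. It gave 199 and 268 CPM in non-injected embryos. Zscan4d of that list averaged 67.2 ± 35.6 CPM in injected and 13.7 ± 10.2 CPM in non-injected embryos (log2 fold change 2.22 ± 0.65, edgeR adjusted p = 0.701). The part of a difference in embryo stage in the values of Zp3, Bmp15 and Oosp1 was not tested.

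Between library numbers, the same lists held called genes, chosen for mention after their values were seen. Of the 14 other stored oocyte transcripts, 4 fell and 1 rose in libraries numbered 2, where 3.12% of all genes tested were called. Dppa3, a maternal factor that protects the maternal genome from demethylation, averaged 819 ± 97.2 CPM in libraries numbered 2 and 2030 ± 527 CPM in those numbered 1 (SD, n = 3 each, log2 difference -1.28 ± 0.18, edgeR adjusted p = 0.00999). Ooep, Zbed3 and Nlrp14 had log2 differences of -1.88, -1.33 and -1.30. H1foo, the oocyte linker histone, rose like Oosp1, averaging 120 ± 29.6 CPM in libraries numbered 2 and 43.1 ± 18.7 CPM in those numbered 1 (log2 difference 1.57 ± 0.30, edgeR adjusted p = 0.0242). Of the 27 tail-control genes 3 fell, against the same 3.12% called over all genes: Pabpc1l (-2.23), Cnot6l (-1.18) and Eif4enif1 (-1.04). Pla2g4c averaged 229 ± 120 CPM in libraries numbered 2 and 689 ± 303 CPM in those numbered 1 (log2 difference -1.65 ± 0.19, edgeR adjusted p = 0.0041).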

How the data were processed

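Per the submitters' processing notes, the pipeline used CASAVA 1.8.2 for base calling, TopHat2 2.0.14 with Bowtie for alignment (build mm9) and HTSeq 0.6.1 for counting. The annotation release and the strand setting are not given in the sources used here. Per the labels' protocols, cDNA was amplified from total RNA with random and poly-T primers. In GENCODE M21 none of the 8 genes overlapped another gene by exon. The deposited file holds raw read counts per gene, per the file headers, and every test started from these counts. The signal values deposited by the authors, normalized counts, came out as raw counts over a single size factor for each library when checked, within 3.73e-08. Length-scaled signal values in the deposited file gave the implied gene lengths. The authors' deposited log2 values and p-values cover Suv39h1wt vs Suv39h1mut and come from a test that is not given in the sources used here.

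Tests used R 4.3.3, edgeR 4.0.16 (robust quasi-likelihood, TMM, filterByExpr with a minimum count of 10, 6 libraries, group as factor) and Benjamini-Hochberg adjustment over 17638 genes at 0.05; limma 3.58.1, DESeq2 1.42.0 and version 1.17.8 of data.table were also used. Each SE was computed from the edgeR test, as the absolute log2 fold change over the square root of its F statistic. The fits were also run on simulated data, drawn with the same spread for all genes. For the group comparisons these data held no difference between library numbers. How often the fits would call differences of the size seen for Zp3 or Bmp15 was not measured. Figures used Python 3.11.15 and matplotlib 3.10.9. Transcript lengths and 3′ ends are from GENCODE M21 (GRCm38), and positions are from the deposited file (mm9). Columns left unmapped numbered 0.

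The labels do not say that libraries came from separate collections, so p-values measure the spread between these libraries, which may be technical. Number 2 minus number 1 differences of the groups had correlations of 0.196, 0.141 and 0.167 over 17638 genes and 0.501, 0.472 and 0.473 over 6820 genes of at least 10 CPM. Each exceeded 0.1, and the number was therefore taken to pair libraries. That rests on these data and not on the labels. A fit with the number as a block lowered the biological coefficient of variation to 0.774, against 0.862 without it. The main group tests left the number out, so their SE hold the spread between numbers. Values with the block are given for injected vs non-injected embryos and under the dependence on processing.

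The 8 genes, the lists and the tests were chosen with earlier results of these data known. The rule for named genes took the 8, the nearest genes by pattern, Suv39h1, and the 2 genes with the smallest p of each list in each group comparison. Of these list genes, those of injected vs non-injected are printed, and those of the marker lists and the other comparisons in part or not at all. A called list gene between library numbers is not reported here. Alternatives were other scalings, no filter, DESeq2, the block and each library left out.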

Additional observations from a re-analysis of the deposited data

Results flagged for a closer look

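For several of the 8 genes, a group difference had one sign among the libraries numbered 2 and the opposite sign among those numbered 1. With 1 library of each group per number, whether the differences differ was not tested. Such opposite signs occurred for 45.8% of all genes in Suv39h1wt vs Suv39h1mut and for 40.4% in each comparison with non-injected embryos, so they are common here. In Suv39h1wt vs Suv39h1mut, the log2 difference of Zp1 was 1.03 among libraries numbered 2 and -0.62 among those numbered 1, 1.64 apart. Zp3 had -0.37 among libraries numbered 2 and 0.86 among those numbered 1, -1.23 apart. Plat had -1.29 among libraries numbered 2 and 0.96 among those numbered 1, -2.25 apart. In Suv39h1wt vs non-injected, the log2 difference of Zp1 was -0.77 among libraries numbered 2 and 0.52 among those numbered 1, -1.29 apart. Gdf9 had -0.04 among libraries numbered 2 and 0.74 among those numbered 1, -0.77 apart. Mos had -3.22 among libraries numbered 2 and 0.07 among those numbered 1, -3.29 apart. Plat had -0.15 among libraries numbered 2 and 1.25 among those numbered 1, -1.4 apart. In Suv39h1mut vs non-injected, the log2 difference of Zp1 was -1.8 among libraries numbered 2 and 1.13 among those numbered 1, -2.93 apart. Zp2 had 0.35 among libraries numbered 2 and -0.02 among those numbered 1, 0.36 apart. Gdf9 had -0.81 among libraries numbered 2 and 0.48 among those numbered 1, -1.29 apart. Mos had -1.07 among libraries numbered 2 and 0.56 among those numbered 1, -1.64 apart. The Mos values rest on 7 to 64 reads per library. Dixon's test on the 4 injected libraries flagged none for any of the 8 genes, with Q from 0.101 (Zp2) to 0.648 (Mos). The 4 values mix 2 groups and 2 library numbers. A test on so few values cannot exclude an outlying library.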

How the results depend on the processing

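Under every alternative run, no group comparison called any of the 8 genes, and Zp3, Bmp15 and Oosp1 kept their direction in each comparison with non-injected embryos. For Zp3 and Bmp15, whose libraries did not overlap there, leaving out a library could hardly turn it. With the library number as a replicate block, edgeR still called 0 genes in all 4 group comparisons. In injected vs non-injected embryos Oosp1 had an edgeR adjusted p of 0.156, Bmp15 of 0.222 and Zp3 of 0.339 (unadjusted 0.00104, 0.00635 and 0.0264). In Suv39h1wt vs non-injected they had 0.322, 0.463 and 0.54 (unadjusted 0.00412, 0.031 and 0.0874, without the block 0.257, 0.178 and 0.14). In Suv39h1mut vs non-injected they had 0.238, 0.281 and 0.463 (unadjusted 0.00125, 0.00476 and 0.0358, without the block 0.164, 0.0644 and 0.0868). With the block, 1803 and 1761 of all genes had an unadjusted edgeR p under 0.05 in these 2 comparisons. Calls over all genes were 18, 33, 9 and 69 in the 4 group comparisons without the low-count filter and 44, 284, 59 and 170 with DESeq2, in the order Suv39h1wt vs Suv39h1mut, Suv39h1wt and Suv39h1mut vs non-injected, and injected vs non-injected. Between library numbers they were 1005 without the filter and 2428 with DESeq2. Leaving out 1 library gave 0 to 18, 0 to 44, 0 to 1 and 0 to 16 calls in the same order, and 221 to 760 between numbers. A group left with 1 library is assumed to vary like the others. The cause of these changes was not tested. Upper-quartile scaling put the median of all genes at 0.13 in Suv39h1mut vs non-injected (0.02 with TMM) and at -0.18 between numbers (-0.08 with TMM). It turned Zp1 to -0.07 in Suv39h1wt vs Suv39h1mut, and Zp1 to -0.02 and Gdf9 to -0.07 between numbers, where Gdf9 was at 0 without the filter. Leaving out 1 library at a time turned the sign of these log2 values, given as their range. In Suv39h1wt vs Suv39h1mut the ranges were -0.5 to 0.94 for Zp1, -0.64 to 1.01 for Zp2, -0.23 to 0.75 for Zp3, -0.55 to 0.07 for Bmp15, -0.78 to 0.54 for Oosp1 and -0.92 to 0.51 for Plat. In Suv39h1wt vs non-injected the ranges were -0.8 to 0.62 for Zp1, -0.58 to 1.41 for Zp2 and -0.14 to 1.28 for Plat. In Suv39h1mut vs non-injected the ranges were -1.23 to 0.58 for Zp1, -0.8 to 1.27 for Zp2, -0.49 to 0.23 for Gdf9 and -0.88 to 0.43 for Mos. In injected vs non-injected the ranges were -0.82 to 0.6 for Zp1, -0.49 to 1.34 for Zp2 and -0.19 to 0.47 for Gdf9. In libraries numbered 2 vs numbered 1 the ranges were -0.64 to 0.82 for Zp1, -0.32 to 0.32 for Gdf9, -1.09 to 0.53 for Mos and -0.77 to 0.38 for Plat. Per length, the exon union put Plat at 2.2 CPM per kilobase and the deposited lengths put Zp1 at 10.5. Leaving out the mitochondrial ribosomal genes raised CPM levels without turning a direction. Depth limits Mos most, with 7 to 64 reads per library.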
